A study of Mus musculus with 6 samples.

Results

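Hepatic stellate cells are the vitamin A-storing pericytes of the liver, and 10 genes that mark their resting state and their activation were followed in mouse livers with and without knockdown of Atoh8 during DDC feeding. The genes were found by symbol in the deposited table of gene names and linked by gene identifier to the count files. All 10 were present among 47729 genes. Lrat and Reln stood for the quiescent cell, Acta2, Tagln and Des for the contractile cytoskeleton, Pdgfra and Pdgfrb for the receptors of platelet-derived growth factor (PDGF), and Timp1, Lox and Loxl1 for matrix turnover and crosslinking. Both groups were C57BL/6 mice that had eaten 0.1% DDC, a chemical that raises liver porphyrins and harms the bile ducts, over 17 days. The 3 control libraries have the genotype WT in the sample labels and the name shNC in the series design, and the 3 libraries of the other group have the genotype ATOH8 knockdown and the name shAtoh8. The age and sex of the mice, the vector, and the cells it reached are not given in the sources used here. Hepatocyte is the labelled cell type and liver the labelled source, and the RNA came from removed, frozen livers. They do not say that the replicates were separate animals, so p-values reflect only how these samples vary, and that variation may be technical.

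In a healthy liver the stellate cell lies between the sinusoidal endothelium and the hepatocytes and stores retinyl esters, which the enzyme encoded by Lrat makes. On injury it can lose this store, respond to PDGF and TGF-beta, express smooth muscle proteins such as the actin encoded by Acta2, and lay down and crosslink collagen. DDC feeding is a common model of periductal fibrosis, in which portal fibroblasts are a further source of such cells.

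The promoters of Acta2, Des and Reln are shown because Acta2 was the member that passed the test over all genes, Des shares its contractile role and did not, and Reln was the most abundant member. Of the 10 members, 6 had a promoter in the RefSeq table for GRCm38.p6. Each sequence is the 250 bases before the RefSeq start site, on the gene's strand, chr19:34255374-34255623 (minus strand), chr1:75360042-75360291 (plus strand) and chr5:22344706-22344955 (minus strand). Capitals mark CArG boxes, the element bound by serum response factor (SRF), with up to 1 G or C allowed in the A/T centre, and the E-box letters CANNTG, which basic helix-loop-helix proteins, the family of Atoh8, can bind. Both strands were searched, and no marked motif overlapped another. In the GENCODE annotation Acta2 starts at 34255590, inside its window, so most of that window and both its CArG boxes lie within the gene as annotated there.
Acta2: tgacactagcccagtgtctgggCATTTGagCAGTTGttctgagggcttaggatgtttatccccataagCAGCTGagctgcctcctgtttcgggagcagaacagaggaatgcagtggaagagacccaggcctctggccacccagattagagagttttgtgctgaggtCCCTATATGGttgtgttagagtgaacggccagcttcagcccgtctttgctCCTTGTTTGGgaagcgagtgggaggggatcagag
Des: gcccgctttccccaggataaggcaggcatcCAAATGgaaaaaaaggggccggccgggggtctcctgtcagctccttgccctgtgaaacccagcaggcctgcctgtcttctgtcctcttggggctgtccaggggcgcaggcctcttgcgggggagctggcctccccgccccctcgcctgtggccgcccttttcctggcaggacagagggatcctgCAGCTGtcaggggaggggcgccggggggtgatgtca
Reln: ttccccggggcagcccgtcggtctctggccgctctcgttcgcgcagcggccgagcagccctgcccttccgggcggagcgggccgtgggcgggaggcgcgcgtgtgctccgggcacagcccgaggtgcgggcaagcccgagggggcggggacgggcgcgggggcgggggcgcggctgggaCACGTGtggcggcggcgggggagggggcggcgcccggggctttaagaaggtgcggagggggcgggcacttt

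Acta2 held CCCTATATGG starting 84 bases and CCTTGTTTGG starting 34 bases upstream of the start site, both CArG boxes with 1 base outside the exact consensus. Such a box was present in 8.59% of 32851 RefSeq promoter windows of the same length, and the exact box in 1.47%. Of the other 5 members with a promoter, Lrat had such a box (CCAAGAAAGG, starting 223 bases upstream), and Des, Reln, Pdgfra and Timp1 had none in this window. The E-box letters occurred 3 times in Acta2, 2 times in Des and 1 time in Reln, whose CACGTG starts 71 bases upstream. They were present in 66.2% of all windows, so their presence here is close to what promoters in general show. These matches are letters in a window and no evidence of binding.

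Libraries held 31912058 to 37969644 reads in genes. Atoh8 stood at 16.4 to 63.8 CPM (reads of the gene scaled to a fixed library total, with TMM factors) in the controls and at 5.64 to 10.2 CPM in the knockdown libraries, without overlap (log2 fold change -1.92, SE 0.58, edgeR adjusted p = 0.197). The highest control, replicate 1, was an outlying library. Leaving it out gave -0.95 for Atoh8 (SE 0.23, edgeR adjusted p = 0.0115). Over genes, the log2 CPM of control replicate 1 had Pearson correlations of 0.916 and 0.907 with its fellow controls, which had 0.984 with each other. Each member's result is therefore also given without it. The summed level of 10 hepatocyte markers, most of it Alb, was 115126 to 142748 CPM in the controls and 107553 to 122526 CPM in the knockdown libraries. The 10 macrophage markers summed to 550 CPM in control replicate 1, 294 and 264 CPM in the other controls and 461 to 534 CPM in the knockdown libraries. The 10 endothelial markers summed to 202 to 277 CPM, and 8 lymphocyte markers to 0.172 to 0.418 CPM. In such bulk RNA, fewer cells of a type and less RNA per cell cannot be told apart.

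Acta2 rose in the knockdown livers, and no other member passed the test with all 6 libraries. Reln, Tagln, Timp1 and Lox also stood higher in every knockdown library than in any control, and Lrat, Des, Pdgfra, Pdgfrb and Loxl1 overlapped between the groups. Of the 9 members tested, 1 was called higher at an edgeR adjusted p under 0.05, where 0.741% of 13767 tested genes were, and 0 were lower, where 0.123% were (0.864% in either direction). DESeq2 called 2 members higher and 0 lower, against 4.62% and 2.16% of genes. At an unadjusted p under 0.05, edgeR had 4 members, each higher, where 14.5% of genes had one in either direction and 9.14% were higher. Groups did not overlap, with the knockdown higher, for 4 tested members, against 13.0% of tested genes. The median log2 fold change of the tested members was 0.80, and that of the tested genes -0.05. Leaving out control replicate 1, 7 of 10 members were higher and 0 lower, against 16.5% and 16.1% of 14222 genes, with medians of 1.17 and 0.01. Acta2, Timp1 and Loxl1 passed the filter on low counts through the knockdown libraries. Of their controls, 0, 1 and 1 reached its cutoff of 0.271 CPM. Lox did not pass it with all 6 libraries. In the fit without control replicate 1, Acta2, Timp1, Loxl1 and Lox all entered through the knockdown libraries, and all were among the members called higher. Control replicates 2 and 3 had 1 and 0 reads of Acta2, 5 and 7 of Timp1, 7 and 4 of Loxl1, and 0 and 1 of Lox. These counts and medians are therefore a description of the members that passed.

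**Figure D1:**
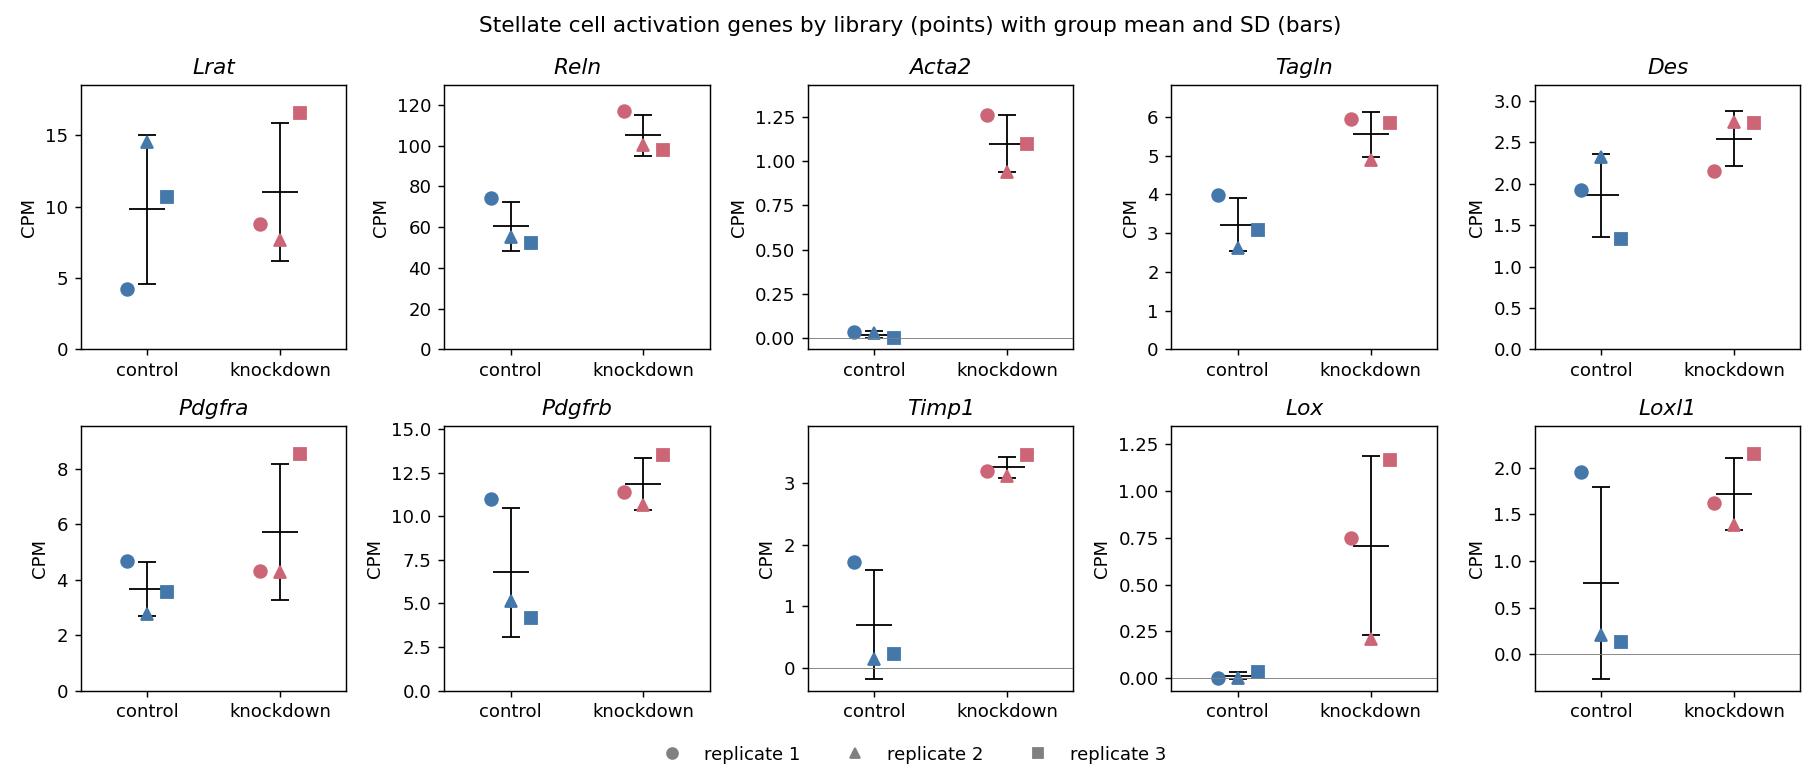
Level of each of the 10 members in CPM (linear axes, 1 panel per gene) in 3 control and 3 knockdown libraries. Points are libraries with a marker per replicate number, and bars are the group mean and SD. Acta2, Reln, Tagln, Timp1 and Lox do not overlap between groups, and control replicate 1 lies near the knockdown libraries for Pdgfrb and Loxl1.

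Of the quiescence genes, Reln did not overlap between the groups and Lrat did, and the difference between their fold changes was not tested. Reln, on chromosome 5 (21884454 to 22344702, minus strand, GRCm38), encodes the secreted glycoprotein reelin, which in liver marks stellate cells. In replicate order, its level was 74.2, 55.0 and 52.0 CPM in the controls, and 117, 100.4 and 98.0 CPM in the knockdown livers. The lowest knockdown library lay above the highest control, and the group means were 60.4 ± 12.1 and 105 ± 10.2 CPM (SD, n = 3 each). The log2 fold change of Reln was 0.80 (SE 0.20, edgeR adjusted p = 0.146), and without control replicate 1 it passed (0.99, SE 0.14, edgeR adjusted p = 0.000765). By DESeq2 Reln passed with all 6 libraries (0.79, adjusted p = 0.0126).

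Lrat, the lecithin retinol acyltransferase gene on chromosome 3 (82892579 to 82903973, minus strand), stood at 4.21, 14.5 and 10.7 CPM in the controls and at 8.82, 7.68 and 16.5 CPM in the knockdown libraries. Its lowest value was control replicate 1 and its highest knockdown replicate 3, with the other 4 libraries between. The log2 fold change was 0.17 (SE 0.49, edgeR adjusted p = 0.910), which turned to -0.17 without control replicate 1 (SE 0.31, edgeR adjusted p = 0.698). Lrat thus had no direction that held across these libraries, while Reln was higher in 3 of 3 knockdown libraries.

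Acta2 had the largest ratio of reads among the tested members. It lies on chromosome 19 (34241090 to 34255590, minus strand) and encodes alpha smooth muscle actin, the usual marker of an activated stellate cell or myofibroblast. It had 1, 1 and 0 reads in the controls and 52, 36 and 47 reads in the knockdown libraries, or 0.0331, 0.0287 and 0 CPM against 1.26, 0.941 and 1.10 CPM. Each control lay below its floor of 3 reads, 0.0860 to 0.0994 CPM, and each knockdown library well above. The ratio of summed reads, scaled for library size, was 52.9 with an exact 95% interval of 14.4 to 441 that covers counting error only. Acta2 passed edgeR (adjusted p = 0.0282), also without control replicate 1 (adjusted p = 0.000891). It was no longer called when any one of the other 5 libraries was left out (edgeR adjusted p = 0.0700 to 0.204) or in the FPKM alternatives (limma adjusted p = 0.0526 and 0.0563).

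Acta2 belongs to a family of near-identical actins, so its reads are less certain. Actc1, the cardiac actin, had 5, 1 and 0 control reads and 28, 15 and 47 knockdown reads (edgeR adjusted p = 0.162). It passed without control replicate 1 (log2 fold change 5.32, edgeR adjusted p = 0.00442). By FPKM, Actc1 overlapped between the groups, since control replicate 1 stood above every knockdown library. Its control FPKM were 1.03, 0.0465 and 0, against knockdown FPKM of 0.610, 0.411 and 0.812. Acta1 had 1 read and Actg2 2 reads over all 6 libraries. Actb, the cytoplasmic actin, stood at 539 ± 97.0 and 601 ± 48.8 CPM (SD, n = 3 each) and did not pass with all 6 libraries or without control replicate 1 (edgeR adjusted p = 0.773 and 0.138). How far reads were shared between actins was not tested, and the actins beside Acta2 were chosen after its values were seen.

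Tagln, on chromosome 9 (45929619 to 45936058, minus strand), encodes transgelin, an actin-binding protein of smooth muscle. It stood at 3.97, 2.61 and 3.09 CPM in the controls and at 5.94, 4.89 and 5.85 CPM in the knockdown libraries, without overlap. That gave a log2 fold change of 0.79 (SE 0.27, edgeR adjusted p = 0.238). With control replicate 1, the highest control, left out, it was 0.98 (SE 0.24, edgeR adjusted p = 0.0110). Tagln overlaps Pcsk7 on the opposite strand, which had 1013 to 1496 reads per library, and with the strand setting not given, reads in the shared stretch cannot be assigned.

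Des, on chromosome 1 (75360329 to 75368579, plus strand), encodes desmin, the intermediate filament of muscle and of rodent stellate cells. It stood at 1.92, 2.32 and 1.33 CPM in the controls and at 2.16, 2.74 and 2.73 CPM in the knockdown libraries. Knockdown replicate 1 lay below control replicate 2, so the groups overlapped. The log2 fold change was 0.45 (SE 0.33, edgeR adjusted p = 0.594) with all 6 libraries and 0.49 (SE 0.33, edgeR adjusted p = 0.295) without control replicate 1. Some genes of mature smooth muscle, chosen after their values were seen, were scarce in the same libraries. Myh11, the smooth muscle myosin heavy chain, had 3, 45 and 10 control reads and 3, 11 and 31 knockdown reads. Cnn1 had 3 reads and Myocd 0 reads over all 6. Other contractile genes were not scarce, with Smtn at 3.02 to 10.4, Mylk at 56.9 to 102 and Cald1 at 78.0 to 344 CPM.

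The PDGF receptors stood higher on average in the knockdown livers, but control replicate 1 was at their level. Pdgfrb, the beta receptor gene on chromosome 18 (61045150 to 61085061, plus strand), is the main mitogen receptor of activated stellate cells. It stood at 11.0, 5.16 and 4.19 CPM in the controls and at 11.4, 10.6 and 13.5 CPM in the knockdown libraries. Control replicate 1 lay inside the knockdown range, and control replicates 2 and 3 below it. The log2 fold change of Pdgfrb was 0.81 (SE 0.38, edgeR adjusted p = 0.392), and 1.36 without control replicate 1 (SE 0.20, edgeR adjusted p = 0.00110).

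Pdgfra, the alpha receptor gene on chromosome 5 (75152292 to 75198215, plus strand), is found on fibroblasts and quiescent stellate cells. It stood at 4.67, 2.75 and 3.54 CPM in the controls and at 4.31, 4.29 and 8.53 CPM in the knockdown libraries. Control replicate 1 exceeded 2 knockdown libraries, and knockdown replicate 3 stood highest. Pdgfra did not pass with all 6 libraries (log2 fold change 0.65, SE 0.37, edgeR adjusted p = 0.489) or without control replicate 1 (0.88, SE 0.34, edgeR adjusted p = 0.0755).

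Among the matrix genes, Timp1 separated the groups and Loxl1 did not. Timp1, on the X chromosome (20870166 to 20874735, plus strand), encodes an inhibitor of matrix metalloproteinases. It stood at 1.72, 0.143 and 0.227 CPM in the controls, from 52, 5 and 7 reads, and at 3.20, 3.11 and 3.45 CPM in the knockdown libraries. Control replicate 1 lay between the other controls and the knockdown libraries. Its log2 fold change was 2.23 (SE 0.84, edgeR adjusted p = 0.284), and 4.14 without control replicate 1 (SE 0.41, edgeR adjusted p = 0.000224). Timp1 sits inside Syn1 on the opposite strand, which had 5 to 12 reads per library.

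Lox, on chromosome 18 (52516067 to 52529867, minus strand), encodes lysyl oxidase, which starts the crosslinking of collagen and elastin. It had 0, 0 and 1 reads in the controls and 31, 8 and 50 reads in the knockdown libraries, and was below the filter. The control values were under the floor of 3 reads per library, and knockdown replicate 2 was the lowest of its group at 0.209 CPM. The scaled ratio of summed reads was 69.7, with an exact 95% interval of 12.2 to 2783 for counting error only. With no filter on low counts Lox passed (edgeR adjusted p = 0.0385). It also passed where the filter retained it without control replicate 1 (edgeR adjusted p = 0.00950). Lox did not pass when control replicate 2, control replicate 3 or knockdown replicate 2 was left out (edgeR adjusted p = 0.275, 0.215 and 0.0996). Where a library was left out and the filter kept Lox, it did so through the knockdown libraries alone, so these results are a description.

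Loxl1, on chromosome 9 (58287738 to 58313186, minus strand), encodes a lysyl oxidase-like enzyme of elastic fibres. It stood at 1.95, 0.201 and 0.130 CPM in the controls, from 59, 7 and 4 reads, and at 1.62, 1.39 and 2.14 CPM in the knockdown libraries. Control replicate 1 lay inside the knockdown range and control replicates 2 and 3 far below it. Loxl1 had a log2 fold change of 1.18 (SE 0.92, edgeR adjusted p = 0.617), and 3.36 without control replicate 1 (SE 0.51, edgeR adjusted p = 0.00124).

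**Figure D2:**
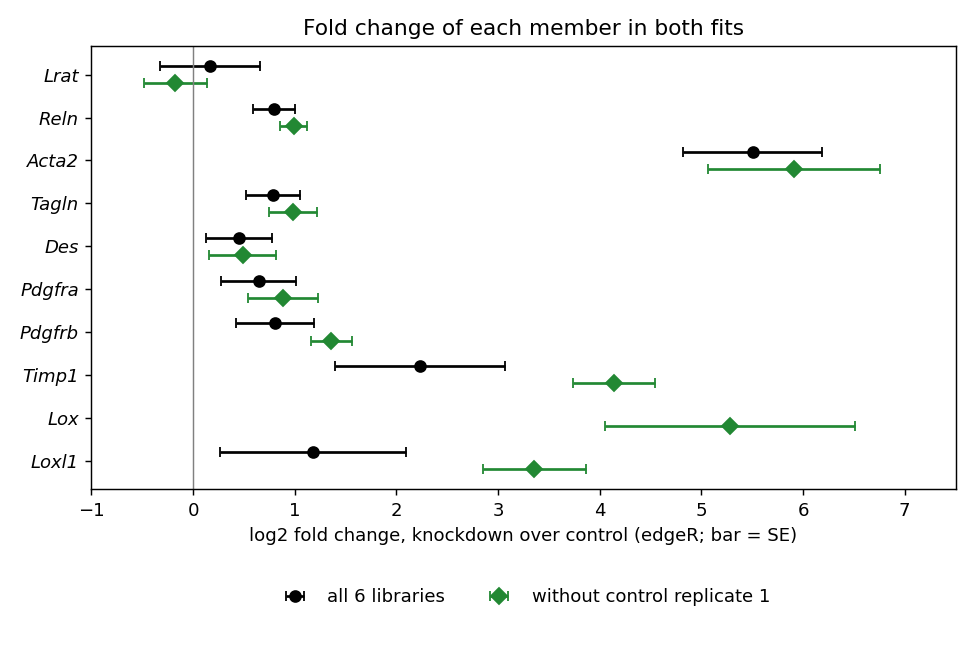
Log2 fold change of each member, knockdown over control, from edgeR with all 6 libraries (circles) and without control replicate 1 (diamonds), with the SE as bars. Timp1 moves from 2.23 to 4.14 and Loxl1 from 1.18 to 3.36, Lrat changes sign, and Lox has a value in the second fit alone because of the filter on low counts.

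Control replicate 1 differed from control replicates 2 and 3 unevenly over the members. Relative to the mean CPM of those controls it stood at 11.8-fold for Loxl1, 9.29-fold for Timp1, 2.35-fold for Pdgfrb, 1.48-fold for Pdgfra, 1.40-fold for Tagln, 1.39-fold for Reln, 1.05-fold for Des and 0.334-fold for Lrat. Relative to the same controls, which both sets of ratios share, the knockdown mean stood at 10.4-fold for Loxl1, 17.5-fold for Timp1, 2.54-fold for Pdgfrb, 1.81-fold for Pdgfra, 1.95-fold for Tagln, 1.96-fold for Reln, 1.39-fold for Des and 0.874-fold for Lrat. Acta2 and Lox had at most 1 read in each control and are left out. In control replicate 1 mitochondrially encoded genes took 2.43% of reads, against 3.48% to 6.94% in the other 5 libraries. The macrophage markers given above summed to 550 CPM there, above the 461 to 534 CPM of the knockdown libraries. The part of either in these values was not tested.

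Levels can be compared between genes per transcript length, as FPKM. In the controls the order of mean FPKM was Reln (8.03), Lrat (2.16), Pdgfrb (1.21), Timp1 (1.18), Tagln (1.05), Pdgfra (0.642), Des (0.601), Loxl1 (0.236), Acta2 (0.0265) and Lox (0.00639). From Lrat to Lox, each gene's range over the 3 controls overlapped that of the next. In the knockdown livers the order was Reln (14.9), Timp1 (5.07), Tagln (2.79), Lrat (2.19), Pdgfrb (2.12), Pdgfra (1.07), Des (0.973), Acta2 (0.670), Loxl1 (0.536) and Lox (0.227). There Reln, Timp1 and Tagln were set apart by ranges that did not overlap, while Tagln, Lrat and Pdgfrb, and Pdgfra, Des, Acta2 and Loxl1, overlapped their neighbours. Acta2 thus stood below Lrat, Reln, Timp1, Tagln, Des, Pdgfra and Pdgfrb in mean FPKM in both groups.

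Within a library, the FPKM of Timp1 over that of Lrat was 2.87, 0.0991 and 0.183 in the control livers, against 2.69, 2.99 and 1.75 in the knockdown libraries. Tagln over Lrat was 1.25, 0.260 and 0.463 in the control livers, against 1.68, 1.47 and 0.945 in the knockdown libraries. Reln over Lrat was 9.29, 2.86 and 2.55 in the control livers, against 8.34, 9.32 and 4.62 in the knockdown libraries. For these 3 ratios, control replicates 2 and 3 lay below the knockdown libraries and control replicate 1 within their range. The ratio of Pdgfrb to Pdgfra was 2.11, 2.05 and 1.41 in the control livers, against 2.21, 2.21 and 1.69 in the knockdown libraries, so the receptors had a similar ratio in both groups. No test was made on these ratios.

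**Figure D3:**
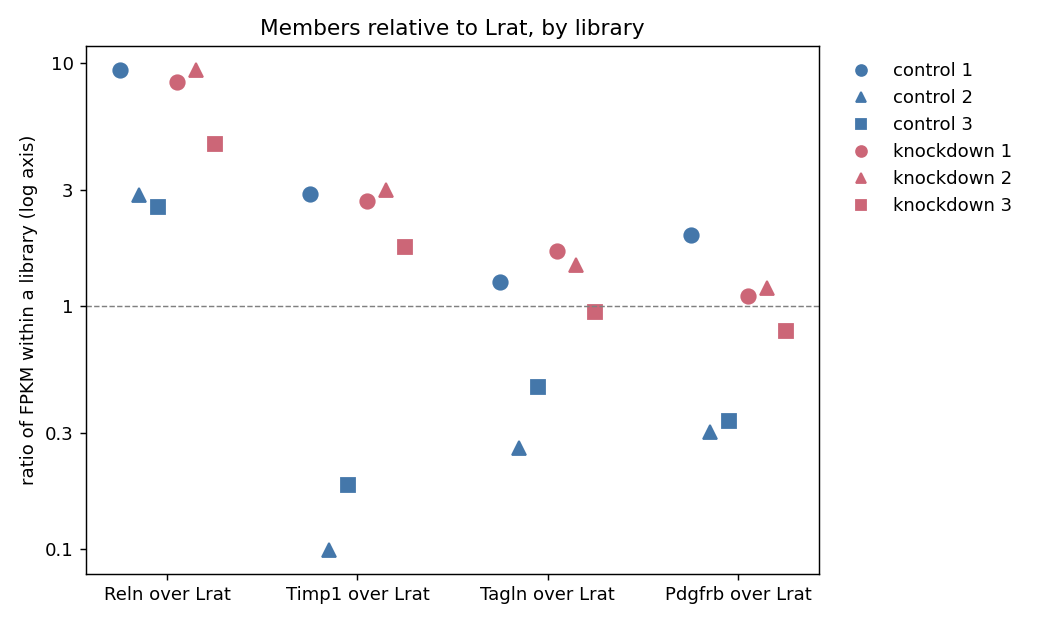
Ratio of the FPKM of Reln, Timp1, Tagln and Pdgfrb to that of Lrat within each library (log axis), with 3 control and 3 knockdown libraries per ratio and no error bars, since each point is 1 library. Control replicates 2 and 3 sit below every knockdown library in each ratio, and control replicate 1 sits with or above them.

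The genes with a pattern over the 6 libraries most like that of Pdgfrb, of 11215 genes averaging 1 CPM or more, were Eef2kmt, Dcbld1, Cd5l, AF251705 and Selplg, with Pearson correlations of log2 CPM of 0.998 to 0.993. Those most like Lrat were Ncoa7, Ccnd2, Armcx5, Med21 and the fatty acid transporter gene Cd36, with correlations of 0.989 to 0.974. Among the members themselves, Pdgfrb and Loxl1 had a correlation of 0.993, Timp1 and Pdgfrb 0.958, and Acta2 and Tagln 0.910, whereas Lrat lay between -0.375 (with Loxl1) and 0.224 (with Des). These values describe 6 points that share the difference between groups and the position of control replicate 1.

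The wider programme was described with 112 further genes in 8 lists, of which 90 were tested. With all 6 libraries 0 passed edgeR in either direction, and 32 had an unadjusted p under 0.05. DESeq2 called 19 higher and 2 lower, against 4.62% and 2.16% of all genes. Limma-voom with quality weights called 46 higher and 13 lower, against 18.7% and 18.2%. Without control replicate 1 edgeR called 44 of 93 higher and 9 lower, against 16.5% and 16.1%. Some genes, such as Myl9 and Dpt, passed the filter of that fit through the knockdown libraries, so its counts describe the genes that passed. The counts for each list below stand against these same shares, and at an unadjusted p under 0.05 against 14.5%. The median log2 fold change was 0.56 with all 6 libraries. The genes described in each list have the smallest p-values in the fits with all 6 libraries and without control replicate 1. The exceptions are some markers of other cell types and some genes called lower, which were chosen after their values were seen.

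The matrix list, which holds fibrillar collagens, elastic fibre genes and other matrix proteins such as Fn1, Sparc and Postn, had the highest median of the 8 lists, 1.35 over 15 tested genes. None passed edgeR with all 6 libraries, 11 had an unadjusted p under 0.05, and DESeq2 called 9 higher and 0 lower. The fibrillar collagen gene Col3a1 stood at 23.0 ± 12.5 and 95.5 ± 27.6 CPM (SD, n = 3 each, edgeR adjusted p = 0.0801). Col5a2, a minor fibrillar collagen, stood at 2.60 ± 0.963 and 9.16 ± 2.46 CPM (SD, n = 3 each, edgeR adjusted p = 0.0744). In the fit without control replicate 1, 13 of 15 were higher and 1 lower, Postn (log2 fold change -0.81, edgeR adjusted p = 0.0268). Col3a1 and Col5a2 were among those higher, as were Col1a2, Col1a1, Col5a1 and the matricellular gene Thbs1 with log2 fold changes of 2.04, 3.16, 1.79 and 3.75. Adjusted p by edgeR in that fit were 0.000358, 0.000102, 0.000233 and 0.000497 for these 4.

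Of 13 tested crosslinking and collagen-processing genes 0 passed edgeR, 6 had an unadjusted p under 0.05, and DESeq2 called 5 higher and 1 lower. Loxl4, a further lysyl oxidase-like gene, stood at 1.18 ± 0.310 and 4.86 ± 1.60 CPM (SD, n = 3 each, edgeR adjusted p = 0.0613). Pcolce, an enhancer of procollagen processing, stood at 4.74 and 11.3 CPM (edgeR adjusted p = 0.0845). P4ha2, a subunit of the collagen prolyl hydroxylase, stood lower in the knockdown libraries, at 16.4 ± 1.75 and 7.84 ± 0.272 CPM (SD, n = 3 each, edgeR adjusted p = 0.0641). With control replicate 1 left out, edgeR called 5 higher, among them Loxl4, Pcolce, Loxl2 and the transglutaminase Tgm2, and 2 lower, P4ha1 and P4ha2.

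Of 11 tested TIMPs and metalloproteinases 0 passed edgeR, 4 had an unadjusted p under 0.05, and DESeq2 called 1 higher and 0 lower. The collagenase gene Mmp13 stood at 0.404 ± 0.125 and 1.88 ± 0.0987 CPM (SD, n = 3 each, edgeR adjusted p = 0.0585). The gelatinase gene Mmp2 had 0.982 CPM in the controls and 2.65 CPM in the knockdown libraries (edgeR adjusted p = 0.275), and Adamts2, a procollagen peptidase, had 2.69 and 6.96 CPM (edgeR adjusted p = 0.310). The fit without control replicate 1 had 7 of 12 higher, among them Mmp12, Timp2, Mmp14, Mmp13, Mmp2 and Adamts2. The 1 lower was Timp3 (log2 fold change -1.02, edgeR adjusted p = 0.00627). Mmp12 is a macrophage elastase and stood at 32.3 CPM in control replicate 1, 12.0 and 5.56 CPM in the other controls and 39.6 to 48.4 CPM in the knockdown libraries.

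Of 10 tested smooth muscle and contractile genes 0 passed edgeR, 5 had an unadjusted p under 0.05, and DESeq2 called 3 higher and 0 lower. Tpm2, a tropomyosin, stood at 0.983 ± 0.198 and 3.15 ± 0.870 CPM (SD, n = 3 each, edgeR adjusted p = 0.0875). Smtn, which encodes smoothelin, had 3.93 CPM in the controls and 9.14 CPM in the knockdown libraries (edgeR adjusted p = 0.156), and Vim, the mesenchymal filament gene, had 11.4 and 22.1 CPM (edgeR adjusted p = 0.177). Leaving out control replicate 1 gave 6 of 11 higher, these being Tpm2, Smtn, Vim, Flna, Myl9 and Actn1, and 2 lower, Mylk and Cald1. Myl9 was not tested with all 6 libraries and entered this fit through the knockdown libraries. It had 0 and 1 reads in control replicates 2 and 3, against 34, 8 and 26 in the knockdown libraries.

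Of 13 tested genes of SRF, its cofactors and the TGF-beta side 0 passed edgeR, 1 had an unadjusted p under 0.05, and DESeq2 called 0. Ctgf, a fibrogenic matricellular gene, stood at 13.7, 4.59 and 1.92 CPM in the controls and at 20.1, 27.0 and 13.2 CPM in the knockdown libraries, with overlap (edgeR adjusted p = 0.335). The ligand gene Tgfb1 had 5.94 CPM in the controls and 9.33 CPM in the knockdown libraries (edgeR adjusted p = 0.365), and Tgfb3 had 0.246 and 0.586 CPM (edgeR adjusted p = 0.388). Without control replicate 1, 6 were higher, among them Ctgf, Tgfb1 and Smad3, and the receptor gene Tgfbr1 was lower (log2 fold change -0.56, edgeR adjusted p = 0.00523).

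Of 6 tested PDGF ligand and ligand-handling genes 0 passed edgeR, 2 had an unadjusted p under 0.05, and DESeq2 called 1 higher and 0 lower. Plat, the tissue plasminogen activator, stood at 1.15 ± 1.22 and 5.17 ± 1.83 CPM (SD, n = 3 each, edgeR adjusted p = 0.236). Pdgfc stood at 5.94 ± 1.68 and 10.5 ± 1.16 CPM (SD, n = 3 each, edgeR adjusted p = 0.240). Pdgfb, a main ligand of the beta receptor, stood at 1.76 and 1.44 CPM (edgeR adjusted p = 0.804). Without control replicate 1 the genes called higher were Plat and Pdgfc, and 0 were lower.

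The other genes of quiescent stellate cells went both ways, with 12 positive and 7 negative fold changes among 19 tested and a median of 0.20. None passed edgeR, 2 had an unadjusted p under 0.05, and DESeq2 called 0 higher and 1 lower. Vipr1 stood lower in the knockdown libraries, at 25.2 ± 1.95 and 14.9 ± 1.97 CPM (SD, n = 3 each, edgeR adjusted p = 0.150). The endothelin receptor gene Ednrb had 2.94 CPM in the controls and 7.15 CPM in the knockdown libraries (edgeR adjusted p = 0.266), and Ecm1 had 68.0 and 47.8 CPM (edgeR adjusted p = 0.356). Without control replicate 1, 4 were higher, among them Ednrb and Ngfr, and 2 lower, Colec10 and Vipr1.

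Markers of portal fibroblasts and mesothelium were mostly near 0, and 3 of 10 were tested. Thy1, a defining portal fibroblast marker, had 7 reads over all 6 libraries, Gli1 7, and the mesothelial genes Upk3b and Msln 0 and 8. The list summed to 10.3 to 22.1 CPM in the controls and 10.8 to 15.3 CPM in the knockdown libraries, most of it Entpd2 (edgeR adjusted p = 0.701). Cd34, also on endothelium, stood at 0.501 ± 0.0167 and 1.04 ± 0.0630 CPM (SD, n = 3 each, edgeR adjusted p = 0.247), and Dpt at 0.238 and 0.765 CPM (edgeR adjusted p = 0.411). None passed edgeR, 1 had an unadjusted p under 0.05, and DESeq2 called 0, while Dpt passed without control replicate 1 (edgeR adjusted p = 0.0272). Of the other cell types, 0 of 10 macrophage and 0 of 10 endothelial markers passed edgeR or DESeq2, with 3 and 0 at an unadjusted p under 0.05. All 10 macrophage markers had a positive fold change (median log2 fold change 0.49), as had 7 of 10 endothelial markers (median 0.09), against 6240 of 13767 tested genes. Of 5 tested cholangiocyte markers, 1 rose, Spp1 (36.4 ± 5.20 and 463 ± 122 CPM, SD, n = 3 each, edgeR adjusted p = 0.00985), which is not confined to duct cells, while the duct keratin gene Krt19 stayed at 0 to 0.166 CPM. Without control replicate 1, 7 of 10 macrophage and 2 of 10 endothelial markers were higher and 0 lower, against 16.5% of genes higher, so the endothelial count is near the background. Of 10 hepatocyte markers 8 had a negative fold change, against 7527 of 13767 tested genes. With all 6 libraries 0 of these markers passed edgeR, 2 had an unadjusted p under 0.05 and DESeq2 called 2 lower. Ttr and Cps1 stood lower in every knockdown library than in any control (edgeR adjusted p = 0.272 and 0.247). The same held for 1382 of 13767 tested genes. EdgeR without control replicate 1 called 3 of the hepatocyte markers lower, Ttr, Cps1 and Apob. The part of these cell types in the members' values was not tested.

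**Figure D4:**
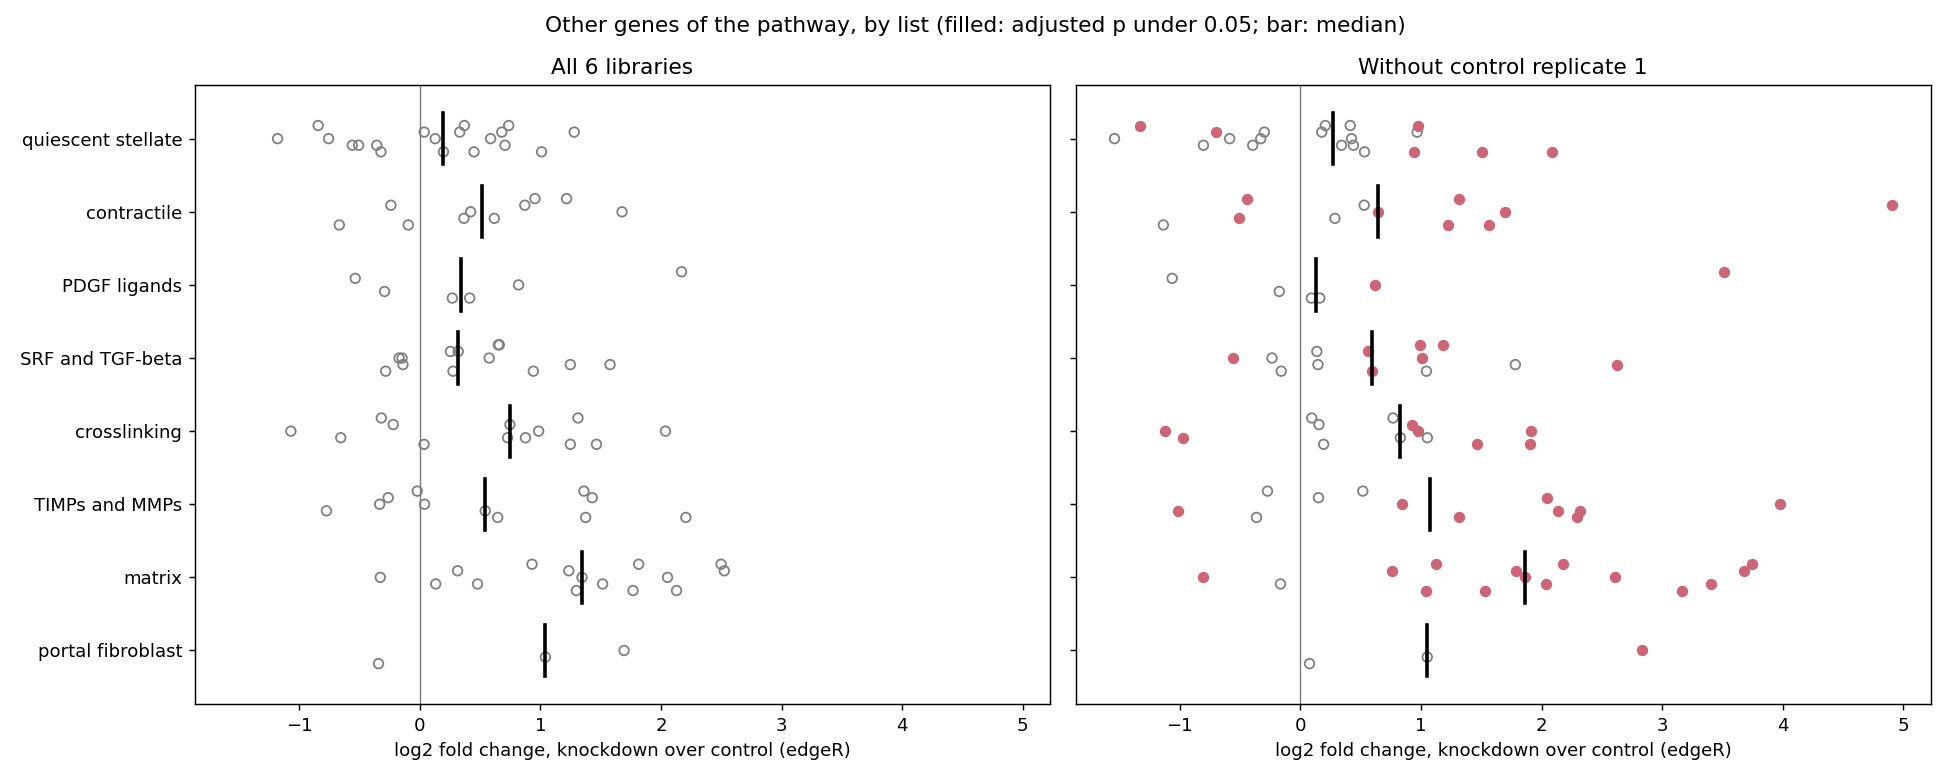
Log2 fold change, knockdown over control, of each tested gene in 8 lists of the wider stellate cell programme, by edgeR with all 6 libraries (left) and without control replicate 1 (right). Filled points have an adjusted p under 0.05 and black bars are list medians. No point is filled on the left, and on the right 53 of 93 are, 44 of them higher.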

How the data were processed

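Counts per gene and an FPKM table, both as deposited by the authors, were used. FastQC, Trim Galore, HISAT2 (2.10), HTSeq, Cufflinks (2.2.1) and build GRCm38 are listed, with no role, per the submitters' processing notes, and no source used here gives the strand setting. Summary lines that name no gene (2.48% to 5.66% of reads outside genes and 4.69% to 6.87% ambiguous) were left out. Each FPKM column, deposited by the authors, matched its count file best by rank correlation. In R 4.3.3, edgeR 4.0.16 removed low genes (filterByExpr), set TMM factors and ran its quasi-likelihood test between the groups. P-values were adjusted by Benjamini-Hochberg over 13767 genes, with a threshold of 0.05. A prior count of 2 entered log2 CPM. The procedure was tested on simulated data. Alternatives used limma 3.58.1 and DESeq2 1.42.0. Coordinates come from GENCODE M21, promoters from RefSeq. No 2 libraries agreed within sampling noise (chi-square per gene at least 50.2). Members, lists and tests were chosen with earlier results of these data known. The rule for named genes took the members, Atoh8, from each list the 3 smallest p and up to 3 more without control replicate 1, and the 5 genes most like Pdgfrb and Lrat in pattern. Genes outside it, such as Pcsk7, Syn1, Myh11, Thy1, Spp1 and Krt19, were chosen after their values were seen. Some genes that the rule takes are not reported here.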

Additional observations from a re-analysis of the deposited data

How the results depend on the processing

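Of the members, 1 was called higher with all 6 libraries. The count was 2 by DESeq2 and with no filter on low counts, and 6 by limma-voom with quality weights. It was 0 on log2(FPKM + 1) and log2(FPKM + 0.1) by limma, and with the replicate number as a block. A filter of 1 CPM in 3 libraries also gave 0, and Acta2 was not tested there. The count ranged from 0 to 7 with each library left out, the 7 without control replicate 1. It was 7 without that library and with a GC content and length offset together, chosen after seeing the data. No setting called a member lower. Lrat was negative by limma-voom (-0.35), without control replicate 1 (-0.17) and without knockdown replicate 3 (-0.23), and ranged from -0.23 to 0.56 over the libraries left out in turn. The other 9 members were positive in every alternative that tested them.

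Of the other pathway genes, with 0 called at first, 19 were higher and 2 lower by DESeq2, 46 and 13 by limma-voom, 9 and 0 with the GC content and length offset, 4 and 0 with no filter, 1 and 0 on log2(FPKM + 1), and 42 and 10 with the offset and without control replicate 1. Leaving out each library gave 0 to 44 higher and 0 to 9 lower, the highest without control replicate 1.

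Over all tested genes, where 102 were higher and 17 lower, DESeq2 called 636 and 298, limma-voom 2576 and 2512, the offset 396 and 120, no filter 213 and 34, limma on log2(FPKM + 1) 107 and 27, and the offset without control replicate 1 2030 and 2216. Leaving out each library gave 0 to 2348 higher and 0 to 2284 lower by edgeR. It called 0 when control replicate 2, knockdown replicate 1 or knockdown replicate 3 was dropped, with 1633, 1130 and 1224 genes at an unadjusted p under 0.05. The replicate block gave 33 higher and 2 lower, and Acta2 then had an edgeR adjusted p of 0.0686. Same-numbered libraries did not deviate from their group means together in every pair (correlations 0.253, -0.082 and 0.290), and the other pairs had -0.331 to 0.270. With group means of 3 libraries, 1 of them outlying, these correlations cannot decide whether the numbers pair the samples. The cause of the differences between settings was not tested. Lox and Acta2 rest on few reads, so depth limits their fold changes.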
